A study of Mus musculus with 45 samples.

Results

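The genes described here encode small leucine-rich proteoglycans, secreted matrix proteins built around a string of leucine-rich repeats. The members are Lum, Dcn, Bgn, Fmod, Ogn, Omd, Kera, Prelp, Aspn and Podn, 10 of the 35675 genes whose transcripts were summed. They were chosen by name, and the family was picked because Lum and Dcn were higher when F/R/C was added to MyoD while other fibroblast genes were lower. For that reason the difference between the MyoD arm with F/R/C and the arm without it is given for all members and all other genes as a description, with no test. Tests are given only for comparisons that this choice did not use.

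The series holds 45 bulk RNA-seq libraries from mouse cells, 3 in each of 15 groups, and every group carried the genotype Tg:Pax7-nGFP/C57BL6;DBA2. The transgene is a nuclear GFP reporter of Pax7, the transcription factor of muscle stem cells. Mouse embryonic fibroblasts (MEFs), which were also made to carry a doxycycline-inducible MyoD, were collected without treatment and on days 2, 4, 6, 8 and 10 of doxycycline, given by itself ("MyoD alone") or together with F/R/C ("MyoD with F/R/C"). MyoD is the transcription factor that converts fibroblasts to muscle, and the promoter behind the inducible system is not given in the labels. The labels do not expand F/R/C. As background, the published method uses forskolin, which raises cyclic AMP, RepSox, which inhibits the TGF-beta receptor kinase, and a glycogen synthase kinase inhibitor that activates Wnt signalling. The remaining groups were established induced myogenic progenitor cells (iMPCs), which were kept in F/R/C medium after 13 days of doxycycline with F/R/C and are described as clones no longer dependent on doxycycline, iMPCs sorted for Pax7-GFP, untreated bulk primary myoblasts from skeletal muscle, and myoblasts sorted for Pax7-GFP. The labels do not say whether replicates came from separate animals or cultures, so p-values measure only the spread between these samples. In bulk RNA, fewer cells of a type and less RNA per cell cannot be told apart.

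Small leucine-rich proteoglycans bind collagen fibrils and set their diameter and spacing, and several of them also bind growth factors such as TGF-beta. Decorin (Dcn), biglycan (Bgn) and asporin (Aspn) form a subfamily in which decorin and biglycan carry chondroitin or dermatan sulfate chains. Lumican (Lum), keratocan (Kera), fibromodulin (Fmod), the arginine-rich end protein Prelp and osteomodulin (Omd) form another, several of whose members can carry keratan sulfate. Osteoglycin (Ogn) and podocan (Podn) belong to further subfamilies. In muscle these genes are known mainly from connective-tissue fibroblasts, and decorin is known to bind myostatin, a TGF-beta family protein that limits muscle growth.

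Total estimated counts ran from 15.6 to 36.3 M reads per library, with the 3 bulk iMPC libraries and myoblast replicate 2 the deepest. Levels are in CPM, counts divided by the library total after TMM scaling, and 3 reads was taken as the detection floor. All 10 genes of a fibroblast marker list were above that floor in MEFs, and Pax7 and Myf5 were not. Summed over that list, expression ran from 12633 to 33392 CPM in the libraries with MyoD alone and from 1432 to 7343 CPM in those with F/R/C. Such a sum weighs the most abundant genes most. Gene by gene the list split between the arms, with Fn1, Col1a1 and Col1a2 lower and Pdgfra and Prrx1 higher, as described further on. The 6 sorted libraries were quantified with another fragment-length setting than the other 39, and the effects of sorting and of that setting cannot be told apart. In the time course and MEFs, all 11 libraries numbered 3 had Y-linked reads above Xist, and the 22 numbered 1 or 2 had the reverse, which splits male from female cells by replicate number. Among the other groups, Y-linked reads were above Xist in replicate 3 of bulk and of sorted iMPCs. The same held for replicate 2 of bulk myoblasts and replicates 1 and 2 of sorted myoblasts, and the remaining libraries had the reverse.

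Of the 10 members, 9 passed the filter on low counts. Omd did not, with 203 reads in all 45 libraries. The family is clustered in the genome (GRCm38, GENCODE M21). On chromosome 10, Dcn (97479609 to 97518143), Lum (97565128 to 97572703) and Kera (97606879 to 97613692) follow each other on the plus strand, with 46984 and 34175 bases between them and no coding gene in either gap. On chromosome 13, Aspn (49544443 to 49567565), Omd (49582462 to 49592822) and Ogn (49608046 to 49624501) lie in a row with 14896 and 15223 bases between them. On chromosome 1, Prelp (133910304 to 133921414) is 115839 bases from Fmod (134037254 to 134048277). Bgn (73483602 to 73495933) is on chromosome X, and Podn (108014791 to 108096445) is on chromosome 4.

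Promoter sequences from RefSeq (GRCm38.p6) matched 8 of the 10 members. The 250 bases before the start of Bgn, Ogn and Aspn (RefSeq's start) are shown because with F/R/C Bgn lay lower, Ogn lay higher and Aspn changed sides over the days, as described further on. Each runs 5′ to 3′ on the plus strand, with every CANNTG (an E-box, the kind of site that MyoD binds) in capitals. The Bgn window is chrX:73483351-73483600, the Ogn window chr13:49607765-49608014, and the Aspn window chr13:49544193-49544442.
Bgn: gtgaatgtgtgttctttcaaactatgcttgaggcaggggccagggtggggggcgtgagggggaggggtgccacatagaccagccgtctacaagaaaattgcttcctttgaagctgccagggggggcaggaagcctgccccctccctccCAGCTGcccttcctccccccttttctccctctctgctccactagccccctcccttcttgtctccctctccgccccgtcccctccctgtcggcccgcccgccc
Ogn: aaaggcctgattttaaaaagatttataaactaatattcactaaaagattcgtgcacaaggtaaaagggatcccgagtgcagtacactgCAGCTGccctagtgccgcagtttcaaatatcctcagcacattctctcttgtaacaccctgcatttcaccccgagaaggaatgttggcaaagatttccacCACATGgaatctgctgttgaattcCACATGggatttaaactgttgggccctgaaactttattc
Aspn: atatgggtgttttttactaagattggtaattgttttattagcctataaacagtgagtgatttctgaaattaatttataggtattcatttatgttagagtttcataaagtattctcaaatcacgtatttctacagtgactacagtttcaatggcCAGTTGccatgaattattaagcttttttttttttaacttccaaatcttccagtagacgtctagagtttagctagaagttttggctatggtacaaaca
Both strands were searched. CANNTG is its own reverse complement in form and was present in 66.2% of all 32851 RefSeq promoter windows of the same length. The Bgn window held 1 match, CAGCTG with its first base at -102 from the start. The Ogn window held 3, CAGCTG at -162 and CACATG at -63 and -39, and the Aspn window held CAGTTG at -97. CAGCTG was in 13.0% of all windows. Among letters recognised by the Wnt effector TCF, CTTTGAA was at -146 in Bgn and in 4.46% of all windows, and CTTTGAT, in 3.21% of all windows, was in none of the 9 member windows. TGACGTCA, the full cyclic AMP response element, was in 1.55% of all windows and in none of the members'. These matches describe letters, not bound sites.

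Lumican, a keratan sulfate proteoglycan of collagen-rich tissue, was at or near 0 reads with MyoD alone up to day 6 and was present with F/R/C. In MEFs Lum stood at 221, 20.8 and 7.16 CPM in replicates 1, 2 and 3, so the MEF libraries themselves spanned a wide range. With MyoD alone it was at most 0.466 CPM in all 9 libraries of days 2, 4 and 6. On day 8 it was 0.229, 0 and 5.38 CPM and on day 10 0.509, 0.0991 and 7.25 CPM, the last value of each in replicate 3. With F/R/C it was 4.60, 2.34 and 18.2 CPM on day 2, 17.6, 9.54 and 40.9 CPM on day 6, and 14.3, 5.16 and 75.4 CPM on day 10. Every library with F/R/C was above its same-day, same-number partner without it, in 15 of 15 pairs, and the groups overlapped on day 10 alone. Here and for the other members, the 15 pairs are 3 replicate numbers followed over 5 days, not 15 independent ones. By the check used (deviations correlated above 0.1 in all 3 pairs), numbers did not pair the arms on days 8 and 10. Libraries numbered 3 correlated there at 0.079 and 0.062, and those numbered 1 and 2 at 0.23 to 0.26. The split of Y-linked reads and Xist by number was nevertheless the same in both arms on every day. The fitted log2 difference, averaged over the 5 days, was 5.50 (SE 0.72, 3 libraries per group and day). The fit took all libraries as independent. The SEs and threshold counts averaged over days, here and below, therefore do not allow for the same numbers recurring on each day.

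Decorin, which binds collagen and sequesters TGF-beta, likewise lay higher with F/R/C in every pair. Dcn was 259, 207 and 78.7 CPM in MEFs. With MyoD alone it was 2.34, 4.24 and 4.23 CPM on day 2, 0.585, 0.762 and 3.98 CPM on day 4, and 1.67, 0.347 and 27.8 CPM on day 10. Cells given F/R/C had 21.5, 17.4 and 69.3 CPM at day 2, 44.6, 27.03 and 106 CPM on day 8, and 25.04, 10.5 and 84.2 CPM on day 10. All Dcn values with F/R/C were above those without it up to day 8, whereas on day 10 replicate 3 without F/R/C was above replicates 1 and 2 with it. The difference averaged over days was 3.38 on the log2 scale (SE 0.62), higher in 15 of 15 pairs. On each day with F/R/C the group mean of both genes stayed below the MEF mean (83.0 ± 119.8 CPM for Lum and 182 ± 92.9 CPM for Dcn, SD, n = 3). The MEF mean of Lum rested on replicate 1 (221 CPM). Replicate 3 with F/R/C, at 18.2 to 80.7 CPM of Lum, nevertheless lay above MEF replicate 3.

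Replicate 3 was the highest of its group in 5 of 5 F/R/C days for Lum and for Dcn, and replicate 2 the lowest in 5 of 5. With MyoD alone, replicate 3 was highest in 5 of 5 days for Lum and 4 of 5 for Dcn. Whether this goes with the sex of the cells was not tested.

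Kera, the keratan sulfate proteoglycan of the cornea and the next gene after Lum, was near the floor but showed the same pattern. It had 25, 6 and 0 reads in MEFs and no read in the 12 libraries with MyoD alone of days 2 to 8, with 0, 0 and 3 on day 10. In the F/R/C arm it had 3, 5 and 17 reads on day 2, 10, 3 and 26 on day 8, and 7, 4 and 61 on day 10. Replicate 3 was again the highest with F/R/C on all 5 days. With so few reads the size of its difference depends on how values near 0 are treated, and no fold is given.

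**Figure D1:**
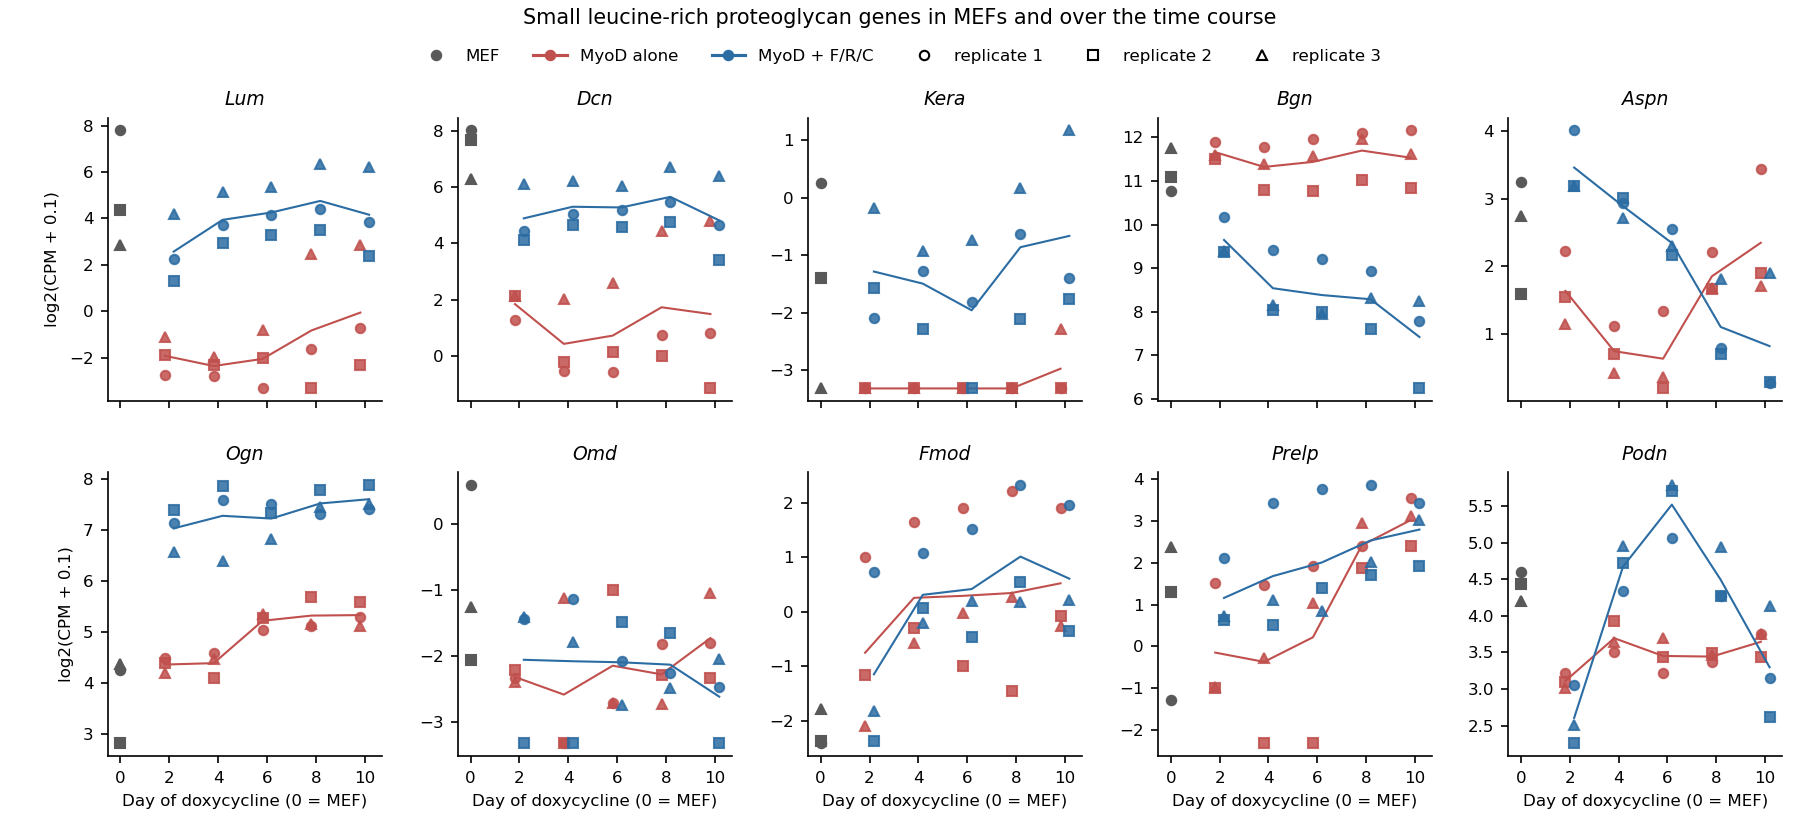
Levels of the 10 members, as log2(CPM + 0.1) on the vertical axis with a scale of its own for each gene, against the day of doxycycline. Points are libraries (MEF grey, MyoD alone red, MyoD with F/R/C blue; symbols mark replicate numbers) and lines join group means of the plotted values. Lum, Dcn and Ogn lie higher with F/R/C, Bgn lies lower, Aspn crosses over after day 6, and Podn reaches its highest values, 33.5 to 55.2 CPM, on day 6 with F/R/C.

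Biglycan, the close relative of decorin, lay lower with F/R/C. Bgn was 1750.2, 2199 and 3463 CPM in MEFs and between 1743 and 4572 CPM in the 15 libraries with MyoD alone. The F/R/C libraries held 1151, 665 and 672 CPM on day 2, 683, 265 and 285 CPM on day 4, and 221, 75.5 and 301 CPM on day 10. No library with F/R/C reached a library without it on any day. The mean difference over days was -3.01 (SE 0.52), lower in 15 of 15 pairs, and it ran from -1.98 (SE 1.11) on day 2 to -3.99 (SE 1.21) on day 10.

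Asporin, a periodontal and cartilage matrix protein that binds TGF-beta, changed its order between the arms. Aspn was 9.41, 2.93 and 6.59 CPM in MEFs. On day 2 it was 15.95, 9.003 and 8.98 CPM with F/R/C and 4.57, 2.81 and 2.11 CPM with MyoD alone, and the groups did not overlap. On day 10 it was 1.11, 1.12 and 3.64 CPM with F/R/C and 10.7, 3.62 and 3.17 CPM with MyoD alone. The log2 difference was 1.84 (SE 0.63) on day 2, 2.18 (SE 0.64) on day 4, 1.68 (SE 0.64) on day 6, -0.70 (SE 0.62) on day 8 and -1.57 (SE 0.63) on day 10.

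Osteoglycin, a matrix protein first described in bone, was higher with F/R/C than with MyoD alone and than in MEFs on every day. Ogn was 18.9, 6.97 and 20.5 CPM in MEFs. With MyoD alone it was 22.4, 20.9 and 18.3 CPM on day 2 and 39.2, 47.9 and 34.5 CPM on day 10. F/R/C libraries were already at 141, 167 and 94.5 CPM on day 2 and 171, 235 and 182 CPM on day 10. The groups did not overlap on any of the 5 days, and the mean difference was 2.44 (SE 0.26), higher in 15 of 15 pairs. Its neighbour Omd, a bone proteoglycan, stayed at or below 1.41 CPM in every library, with 32 reads at most, in MEF replicate 1.

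Podocan, a regulator of smooth muscle growth, had a transient course with F/R/C. Podn was 24.2, 21.5 and 18.4 CPM in MEFs. In the F/R/C arm it was 8.18, 4.69 and 5.57 CPM on day 2, 33.5, 52.1 and 55.2 CPM on day 6, and 8.74, 6.04 and 17.4 CPM on day 10. With MyoD alone it stayed between 7.96 and 15.2 CPM on every day. The log2 difference was -0.47 (SE 0.34) on day 2, 2.10 (SE 0.34) on day 6 and -0.22 (SE 0.33) on day 10.

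Fibromodulin, which regulates collagen fibril assembly and is prominent in tendon, overlapped between the arms on all 5 days. Fmod had 2, 2 and 3 reads in MEFs and reached 3.66, 0.842 and 0.732 CPM with MyoD alone and 3.78, 0.682 and 1.06 CPM with F/R/C on day 10. Its mean difference over days was -0.07 (SE 0.50), higher in 9 of 15 pairs, and replicate 1 held its highest value in both arms on days 2 to 10.

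Prelp, which anchors basement membranes to connective tissue, lay higher with F/R/C on the early days and level with MyoD alone by day 10. Prelp was 0.308, 2.37 and 5.07 CPM in MEFs. On day 4 it was 10.8, 1.32 and 2.05 CPM with F/R/C and 2.66, 0.102 and 0.724 CPM with MyoD alone, and on day 10 it was 10.7, 3.70 and 8.09 CPM with F/R/C and 11.6, 5.20 and 8.61 CPM with MyoD alone. F/R/C libraries were above their partners in 3 of 3 pairs on days 2 and 4, in 2 of 3 on day 6, in 1 of 3 on day 8 and in 0 of 3 on day 10, and the groups overlapped on all 5 days. The log2 difference was 1.00 (SE 1.09) on day 2, 2.00 (SE 1.10) on day 4, 1.64 (SE 1.08) on day 6, 0.38 (SE 1.03) on day 8 and -0.17 (SE 1.03) on day 10, with a mean of 0.97 (SE 0.47).

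**Figure D2:**
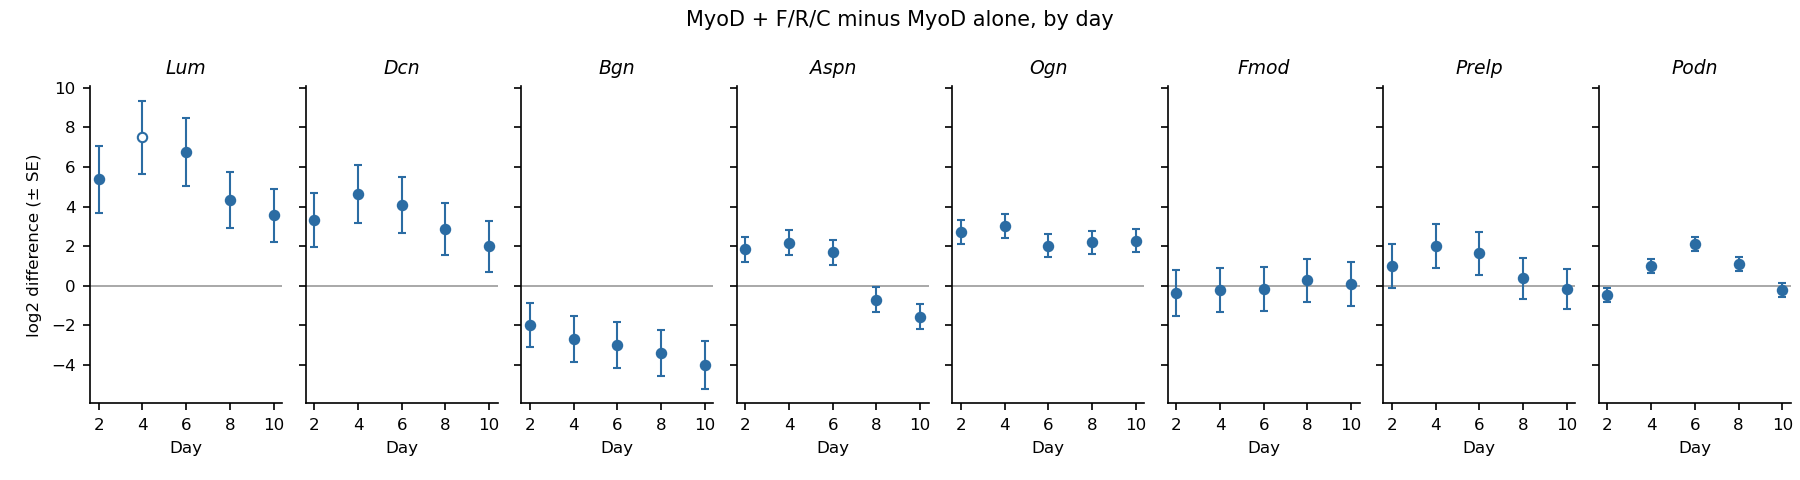
Fitted log2 difference in CPM between MyoD with F/R/C and MyoD alone on each day (points) with its standard error (bars), for 8 of the 10 members, 3 libraries per group. The open point marks a day on which MyoD alone had 3 reads or fewer in each library. Lum and Dcn lie above 0 on every day with their highest points on day 4, Bgn lies below 0 throughout, and Aspn changes sign.

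As a description, 5 of the 9 members lay past the threshold used for calls (edgeR adjusted p under 0.05 and a log2 change of at least 1) in the difference averaged over days, 4 higher (Lum, Dcn, Ogn, Kera) and 1 lower (Bgn). Over all genes the share was 22.1%, and nothing is read from the count because the family was picked on this difference. By day the counts were 2, 4, 5, 5 and 5 on days 2, 4, 6, 8 and 10, against 4.93%, 13.2%, 15.4%, 18.7% and 23.3% of all genes. Leaving out a replicate number lowered them to 0, 1, 1, 0 and 1 without number 1, to 0, 1, 2, 0 and 0 without number 2, and to 0, 3, 3, 2 and 4 without number 3, while the count averaged over days was 5 or 6. Fitting only the groups compared gave 5 on day 2 (4 higher, 1 lower), 3 on day 8 and 2 on day 10, and leaving low counts unfiltered gave 1 on day 2.

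Because levels per transcript length (TPM, a share of all transcripts) can be compared between genes, the make-up of the family was taken from the deposited TPM. Biglycan made up 74.2% to 95.4% of the 10 genes' summed TPM in MEFs and 96.8% to 99.0% with MyoD alone. On day 10 with F/R/C it made up 50.1%, 24.3% and 44.3% in replicates 1, 2 and 3, and osteoglycin made up 34.4%, 66.5% and 24.01%. Decorin was 7.72%, 4.60% and 16.98% of the sum in the same libraries, against 0.0486%, 0.0192% and 1.16% with MyoD alone. The sum itself was 327, 222 and 483 TPM with F/R/C on day 10 and 3377, 1267 and 2429 TPM with MyoD alone, so the family total was lower with F/R/C although Lum, Dcn and Ogn were higher.

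**Figure D3:**
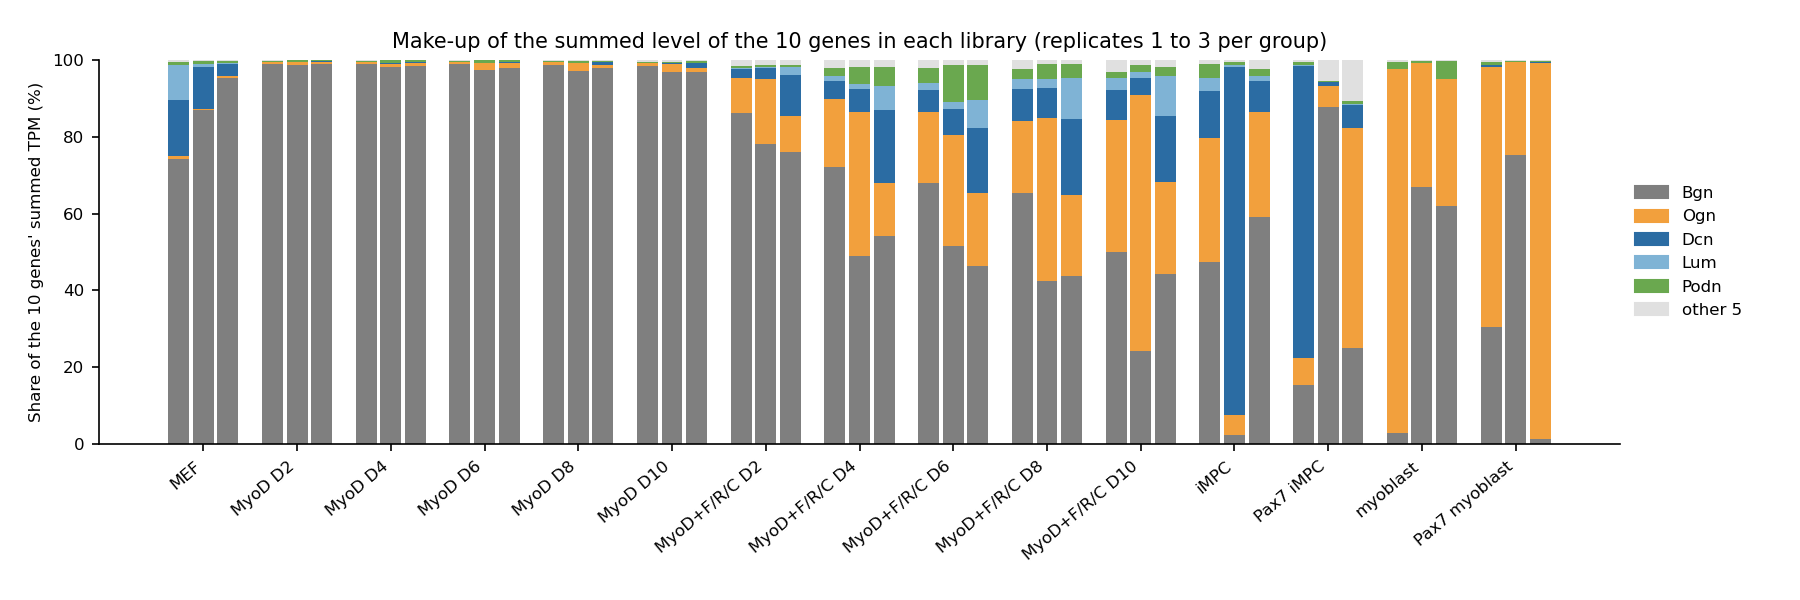
Share of the summed TPM of the 10 members (vertical axis, %) taken by Bgn, Ogn, Dcn, Lum, Podn and the other 5 genes, in each of the 45 libraries (bars, replicates 1 to 3 from left to right in each group). Bgn fills 74.2% to 99.0% of the bars in MEFs and MyoD alone, and Ogn, Dcn and Lum each take up more with F/R/C than with MyoD alone in the same-day, same-number library. In iMPC replicate 2 Dcn takes 90.7%.

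Against the MEFs, the members that the choice of the family did not rest on were tested with edgeR's quasi-likelihood test, 7 of the 8 having passed the filter. After 10 days with F/R/C, 4 of 7 were called, against 34.8% of all genes. Ogn was higher (log2 fold change 3.67, SE 0.62, adjusted p = 1.2e-05) and Bgn was lower (-3.63, SE 1.19, adjusted p = 0.011). Fmod was higher than the 2, 2 and 3 reads of the MEFs (3.89, SE 1.38, adjusted p = 0.019), and Aspn was lower (-1.68, SE 0.63, adjusted p = 0.025), with the libraries of Aspn overlapping. The Fmod call was lost without MEF replicate 1 or 2 or F/R/C replicate 1 (adjusted p from 0.056 to 0.11), the Aspn call without MEF replicate 1 or 3 or F/R/C replicate 1 or 2 (0.050 to 0.14), and the Bgn call without F/R/C replicate 2 (0.060). The Ogn call held whichever library was left out. Podn missed the limit on the fold change (-0.99, SE 0.33, adjusted p = 0.013) and passed it without MEF replicate 3 (-1.09) or F/R/C replicate 3 (-1.39). On day 2 with F/R/C, 2 of 7 were called against 20.4% of all genes, Ogn higher (3.12, SE 0.61, adjusted p = 0.00018) and Podn lower (-1.80, SE 0.34, adjusted p = 0.00013).

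With MyoD alone, Podn and Kera were lower than in MEFs on day 2, and Fmod was higher on day 10. On day 2, 2 of 7 were called, both lower, against 22.4% of all genes called and 10.1% called lower. They were Podn (-1.32, SE 0.34, adjusted p = 0.0027) and Kera, whose mean in MEFs was at least 2.67-fold above the floor of the MyoD libraries (adjusted p = 0.037). The Kera call was lost without MEF replicate 1 (adjusted p = 0.18) and without any of the 3 MyoD libraries (0.081 to 0.090). On day 10, 1 of 7 was called, against 18.9% of all genes. This was Fmod (3.81, SE 1.38, adjusted p = 0.038), and the call was lost when any of 5 of the 6 libraries was left out (adjusted p from 0.056 to 0.18). Bgn was not called on either day (0.40, SE 1.07, on day 2 and 0.36, SE 1.07, on day 10).

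Within each arm, day 10 was compared with day 2 for all 9 members. With F/R/C, 1 of 9 was called, against 16% of all genes, namely Aspn, lower at day 10 (-2.52, SE 0.64, adjusted p = 0.0043) with no overlap between the libraries. Podn (0.81, SE 0.34, adjusted p = 0.072) was called higher without day 10 replicate 2 (1.16, adjusted p = 0.019) or day 2 replicate 1 (1.14, adjusted p = 0.035). With MyoD alone none of 9 was called by edgeR or DESeq2, against 6.26% of all genes, and 2 had an unadjusted p under 0.05. Of the 9, Kera was at 3 reads or fewer in every library of both days. Same-numbered libraries deviated together in that comparison, and with the replicate number as a block 1 member was called, Prelp (3.08 higher at day 10, adjusted p = 0.048).

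Established iMPCs differed from MEFs in 5 of 9 members, against 35.5% of all genes. Ogn was 92.2, 42.2 and 96.3 CPM in iMPCs and was higher than in MEFs (log2 fold change 2.32, SE 0.59, adjusted p = 0.0014). Bgn, at 132, 19.6 and 204 CPM, was lower (-4.38, SE 1.23, adjusted p = 0.0033), as were Aspn (-4.59, SE 0.73, adjusted p = 4.9e-06) and Podn (-1.21, SE 0.33, adjusted p = 0.0028), and none of these 3 overlapped with MEFs. Lum, at 10.2, 3.75 and 4.54 CPM, was called lower (-3.75, SE 1.33, adjusted p = 0.019), but the libraries overlapped and the log2 fold change was -1.13 (adjusted p = 0.47) without MEF replicate 1. The Lum call was also lost without iMPC replicate 2 or 3 (adjusted p = 0.067 and 0.069), and the Podn fold change fell short of the limit (-0.99) without iMPC replicate 3. Kera was not called (-2.80, SE 1.42, adjusted p = 0.10) and was called lower without iMPC replicate 3 (adjusted p = 0.028). Dcn was not called (0.02, SE 1.21). Its iMPC libraries held 23.5, 511 and 19.5 CPM, so replicate 2 stood above all 3 MEF libraries and the other two stood below them. The median log2 fold change of the 9 members was -1.21, beside 0.08 for all genes.

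iMPCs were also set against day 10 with F/R/C, the last point of the route that leads to them. Here 1 of 7 members was called, against 9.57% of all genes, Aspn with 3, 12 and 13 reads in iMPCs (-2.91, SE 0.70, adjusted p = 0.0034). Bgn (-0.75, SE 1.08), Podn (-0.22, SE 0.33) and Prelp (-0.34, SE 1.03) were not called. Ogn was lower in every iMPC library than in the day 10 libraries without passing the test (-1.35, SE 0.57, adjusted p = 0.088), and Kera likewise (-3.70, SE 1.40, adjusted p = 0.067), which passed without iMPC replicate 3 (adjusted p = 0.031).

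**Figure D4:**
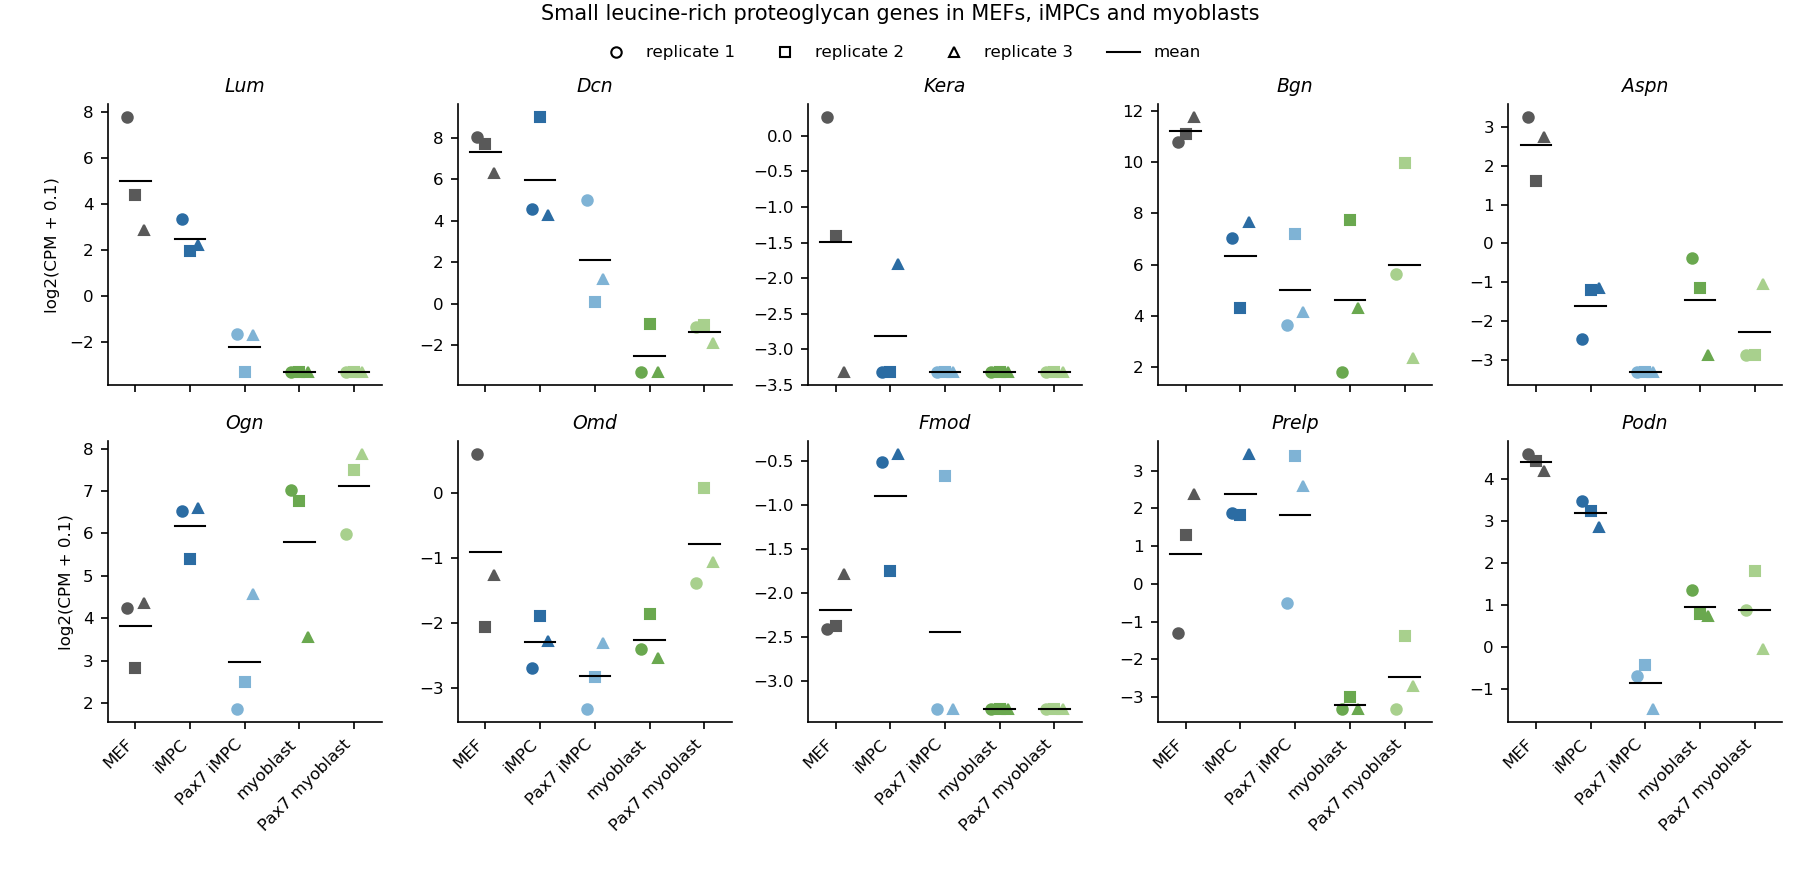
Levels of the 10 members, as log2(CPM + 0.1) on the vertical axis with a scale of its own for each gene, in MEFs, iMPCs, sorted Pax7 iMPCs, myoblasts and sorted Pax7 myoblasts. Points are libraries, with symbols for replicate numbers, and lines are means of the plotted values. Lum and Fmod are at 0 in all 6 myoblast libraries, and Podn is lowest in sorted iMPCs, at 0.258 to 0.647 CPM.

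Primary myoblasts held few or no reads of most members. Lum and Fmod had no read in any of the 6 bulk or sorted myoblast libraries, and Kera had none either. Dcn had 0, 16 and 0 reads in bulk myoblasts and 10, 11 and 3 in sorted ones. Bulk iMPCs exceeded bulk myoblasts in 5 of 9 members, all higher, against 19.6% of all genes called in either direction and 10.9% called higher. Lum was at least 45.7-fold higher than the floor per library (adjusted p = 0.0033), and Fmod at least 3.58-fold (adjusted p = 0.018, and 0.056 and 0.057 without myoblast replicates 2 and 3). Prelp was higher at 3.59, 3.44 and 10.8 CPM in iMPCs, against 0, 1 and 0 reads in myoblasts (adjusted p = 0.00038). Dcn was called higher at 23.5, 511 and 19.5 CPM in iMPCs, against at most 0.401 CPM in myoblasts (adjusted p = 0.00018). The size of its fold rested on single libraries, with a fitted log2 fold change of 10.07 over all libraries, 6.97 without iMPC replicate 2 (adjusted p = 0.0022) and 15.1 without myoblast replicate 2, which held all the reads of its group. Podn was higher by 2.29 on the log2 scale (SE 0.35, adjusted p = 1.3e-05).

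Ogn and Bgn had reads in all 6 myoblast libraries. Ogn was 131, 109 and 11.7 CPM in bulk and 62.9, 179 and 234 CPM in sorted myoblasts, and did not pass the test between bulk iMPCs and bulk myoblasts (-0.12, SE 0.56). Bgn was 3.37, 217 and 19.8 CPM in bulk and 49.1, 997 and 5.06 CPM in sorted myoblasts. Replicate 2 was highest in both groups, although replicate numbers did not pair these groups. By Y-linked reads and Xist, bulk replicate 2 and sorted replicates 1 and 2 were male, and the other myoblast libraries female. Each male myoblast library held more Bgn than each female one. In sorted iMPCs, male replicate 3 (17.6 CPM) lay below female replicate 2 (147 CPM). Whether Bgn goes with the sex of the cells was not tested. The Bgn difference between bulk iMPCs and myoblasts (0.57, SE 1.08) became 3.36 with an adjusted p of 0.038 without myoblast replicate 2, the male library of its group. The fibroblast list's sum ran from 1213 to 7628 CPM in bulk myoblasts and from 2859 to 4151 CPM in bulk iMPCs, with all 10 genes over the floor in each group, and 9 of the 10 were called higher in iMPCs and 1 lower. Its part in the Lum and Dcn difference was not tested.

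Sorted iMPCs were lower than bulk iMPCs in 5 of 9 members and higher in none, against 30.3% of all genes called and 20.5% called lower. With only these 2 groups fitted, 3 of 9 were called (Lum, Ogn and Podn). Lum fell to 0.217, 0 and 0.207 CPM (-5.45, SE 1.73, adjusted p = 0.011), Ogn to 3.51, 5.54 and 23.6 CPM (-2.83, SE 0.60, adjusted p = 0.00029) and Podn to 0.520, 0.647 and 0.258 CPM (-4.24, SE 0.41, adjusted p = 4.0e-09). Aspn had no read in any sorted iMPC library and was at least 1.66-fold lower (adjusted p = 0.0026). Dcn, at 32.2, 0.970 and 2.17 CPM, was called lower (-3.97, SE 1.38, adjusted p = 0.018), but was at -0.82 with an adjusted p of 0.63 without iMPC replicate 2, and at 0.073 and 0.076 in adjusted p without sorted replicates 2 and 3. Fmod was not called (-1.36, SE 1.28) and was called lower without sorted replicate 2 (adjusted p = 0.049). Bgn (59.2 CPM on average in sorted and 119 CPM in bulk iMPCs, adjusted p = 0.46), Prelp (-0.08, SE 1.03, adjusted p = 0.96) and Kera, with no read in sorted iMPCs, were not called either. Of 12 muscle differentiation genes, 10 were called lower in sorted iMPCs, as were 5 of 10 fibroblast markers, whose sum was 1432 to 2901 CPM in sorted and 2859 to 4151 CPM in bulk iMPCs. The part of either in the result was not tested.

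In myoblasts none of the 9 members was called between sorted and bulk cells by edgeR or DESeq2, against 6.23% of all genes, and 0 had an unadjusted p under 0.05. Lum, Fmod and Kera had no read in either group, so these 3 could not be called. Without myoblast replicate 2, the male library of the bulk group, Bgn was called higher in sorted myoblasts (4.94, adjusted p = 0.014), where replicates 1 and 2 were male. The effect of sorting itself differed between iMPCs and myoblasts for Ogn and Podn, as it did for 32.9% of all genes, by the interaction in the closing section. Between the sorted populations, 5 of 9 members were called, against 30% of all genes, and Kera had no read in either. Dcn (5.21, SE 1.67, adjusted p = 0.011) and Prelp (5.52, SE 1.38, adjusted p = 0.0014) were higher in sorted iMPCs. Ogn (-3.88, SE 0.63, adjusted p = 8.2e-06) and Podn (-2.07, SE 0.40, adjusted p = 7.8e-05) were lower, and Aspn was called lower on 0 reads against 1, 1 and 7 (adjusted p = 0.022). Bgn was not called (-2.56, SE 1.14, adjusted p = 0.062) and was called lower without sorted iMPC replicate 2 or sorted myoblast replicate 1 or 3 (adjusted p from 0.010 to 0.034). The Dcn call rested on replicate 1 of the sorted iMPCs (2.28, adjusted p = 0.31, without it), and the Aspn call was lost without any of 4 of the 6 libraries, with adjusted p-values from 0.053 to 0.21.

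Ordered by group mean, Lum was highest in MEFs (83.0 ± 119.8 CPM, SD, n = 3), followed by the F/R/C days 8, 10, 6, 4 and 2 and by iMPCs (6.15 ± 3.49 CPM). The MEF mean came first through replicate 1 alone (221 CPM). MEF replicates 2 and 3, at 20.8 and 7.16 CPM, lay below the means of F/R/C days 6, 8 and 10 (22.7, 37.8 and 31.6 CPM). MyoD alone and sorted iMPCs had means of at most 2.62 CPM, and the myoblast groups were at 0. Of the 14 neighbouring pairs in that order, 13 overlapped. By mean, Dcn was highest in iMPCs (185 ± 283 CPM) and MEFs (182 ± 92.9 CPM) and lowest in bulk myoblasts (0.134 ± 0.231 CPM). The iMPC mean came first through replicate 2 alone (511 CPM), since the other two iMPC libraries, at 23.5 and 19.5 CPM, lay below every MEF library and below the mean of each F/R/C day. For Dcn 13 of 14 neighbouring pairs overlapped as well. Across the 15 group means of log2 CPM, Lum and Dcn had a Pearson r of 0.94 and Lum and Kera of 0.90, whereas Bgn had 0.08 with Lum and 0.15 with Dcn. The genes most like Lum by this measure were Ednrb, an endothelin receptor (0.98), Cdc42ep2 (0.97), Prss35 (0.96), Cma2 (0.96) and Steap4 (0.96). Those most like Dcn were Clu, a secreted chaperone (0.96), Ptgfr, the prostaglandin F receptor (0.96), Cpxm1 (0.95), Mrgprf (0.95) and Col6a1, a chain of collagen VI (0.95). These are descriptions over 15 groups that share starting cells and replicate numbers, and Lum and Dcn had been picked for this pattern.

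The remaining genes of the family were few. Of 7 further small leucine-rich proteoglycan genes (Ecm2, Epyc, Optc, Chad, Nyx, Tsku, Podnl1), 4 passed the filter, and Epyc, the next gene after Kera, had 1 read in all 45 libraries. In the difference of F/R/C from MyoD alone averaged over days, 2 of 4 lay past the threshold, both lower, beside 22.1% of all genes. These were Tsku (-1.21, SE 0.17) and Podnl1 (-1.16, SE 0.35). In iMPCs against MEFs, 3 of 4 were called, all lower, against 35.5% of all genes, with Podnl1 at -3.70 (SE 0.82, adjusted p = 0.00031).

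For the lists that follow, counts of genes past the threshold in the difference averaged over days describe the contrast on which the family was picked, beside the same 22.1% of all genes, and carry no test. Fibrillar collagens and the enzymes that process them are the partners of these proteoglycans. Of 16 such genes, 5 lay higher and 8 lower past the threshold with F/R/C, with a median of -0.99 beside -0.03 for all genes. Of collagen VI, which decorin and biglycan bind, Col6a1 (1.89, SE 0.32), Col6a2 (3.02, SE 0.34) and Col6a3 (2.05, SE 0.44) lay higher. These chains were picked after their values were seen, and no other collagen VI chain is given. Lox, the collagen crosslinking oxidase, lay lower (-3.27, SE 0.32). The tolloid-like proteinases, relatives of the procollagen C-proteinase, split, Tll1 lower (-3.69, SE 0.29) and Tll2 higher (3.76, SE 0.31).

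The fibroblast list split in the same contrast, and the choice of the family had also used fibroblast genes there. Of its 10 genes, 3 lay lower past the threshold (Fn1, Col1a1, Col1a2), 2 lay higher, and 5 did not pass it, with a median of 0.11 beside -0.03 for all genes. The 2 higher genes, named after their values were seen, were Pdgfra, a receptor of connective-tissue progenitors (1.41, SE 0.46), and the mesenchymal transcription factor Prrx1 (1.02, SE 0.19).

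Among the enzymes that build chondroitin and dermatan sulfate chains, more genes lay lower with F/R/C on the late days than on the early ones. Of 22 such genes, 1, 1, 3, 6 and 9 lay lower past the threshold on days 2, 4, 6, 8 and 10. On the same days 0, 0, 0, 1 and 2 lay higher. The share of all genes past it in either direction rose as well, being 4.93%, 13.2%, 15.4%, 18.7% and 23.3%. The list's median log2 difference was -0.17 on day 2 and -1.07 on day 10, beside -0.0015 and -0.07 for all genes. Averaged over days, none lay higher and 4 lower (median -0.48). The 3 with the greatest negative difference were Ust (-1.51, SE 0.15), Chsy3 (-1.46, SE 0.30) and Chpf2 (-1.41, SE 0.13). Of 9 keratan sulfate genes 8 passed the filter, with 1 higher, B3gnt7 (1.31, SE 0.40), and 2 lower, B4galt1 (-1.25, SE 0.11) and Chst5 (-1.19, SE 0.30). Of 15 signalling partners, 1 lay higher and 6 lower. The higher gene was Mstn, which encodes the myostatin that decorin binds (7.42, SE 0.51), and Ccn2, a matricellular TGF-beta target, lay lower (-3.16, SE 0.41). Of 18 genes of other matrix proteoglycans that passed the filter, 3 lay higher, including the glypican Gpc3 (2.58, SE 0.31), and 3 lower, including Cspg4 (-3.05, SE 0.29).

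Markers of other cell types known to express these proteoglycans were listed beside them. Of 6 tendon genes other than members, 2 lay higher past the threshold with F/R/C over the days, Thbs4 (4.22, SE 0.38) and Tnmd (1.49, SE 0.44), and none lower, while the list's sum ran from 122 to 391 CPM with F/R/C and from 268 to 764 CPM with MyoD alone. Of 6 cartilage and bone genes that passed the filter, 1 lay higher and 1 lower, and the sums ran from 20.8 to 51.7 CPM and from 33.8 to 69.4 CPM. The adipocyte list summed to 173 to 566 CPM with F/R/C and to 11.3 to 75.9 CPM with MyoD alone. That sum was highest on day 2 with F/R/C (467 to 566 CPM), where Adipoq, Plin1, Cidec and Lep were at or under 3 reads. Of the list's 7 genes that passed the filter 2 lay higher, Lpl (3.78, SE 0.30) and Adipoq, with at most 10 reads in a library with MyoD alone and 60 with F/R/C. On days 4, 6 and 8 with F/R/C, 7 of its 8 genes were over the floor in at least 1 library, all but Lep. With MyoD alone 4 were over it on those days, and Adipoq, Plin1, Cidec and Lep were not. The arms had the same number over it on day 2 (4) and on day 10 (6). Lep was at or below 3 reads in every library of the time course. Smooth muscle genes had 1 higher and 2 lower of 8, endothelial genes 1 higher and 3 lower of 7, and immune genes 1 higher and 2 lower of 5, with sums for the last 2 lists of at most 23.7 CPM in every time course library. Of 12 muscle differentiation genes none lay past the threshold, and of 11 progenitor genes 1 lay higher and 1 lower. What part any of these cell types had in the proteoglycan levels was not tested.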

How the data were processed

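Poly-A RNA was sequenced from 45 libraries in 15 groups of 3. Per the submitters' processing notes, bcl2fastq 2.19, Trimmomatic 0.36, kallisto 0.44 and edgeR 3.28 were used with GRCm38.p6. Per the file headers, the authors deposited, for each transcript, estimated counts and TPM (transcript abundance per length), neither of which is an observed read tally where transcripts share sequence. The aligned annotation release is not given in the sources used here.

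Estimated counts were summed over each gene's transcripts with GENCODE M21, which matched 121104 of 121843 transcripts and 99.4% to 99.8% of reads per library, and rounded to whole numbers. Genes passing filterByExpr (17325) were tested with edgeR 4.0.16 in R 4.3.3 (quasi-likelihood test, TMM scaling, 1 coefficient per group, 30 residual degrees of freedom, Benjamini-Hochberg adjustment over all genes). Calls required an adjusted p under 0.05 together with a log2 change of 1 or more in either direction. A fold against a group without reads was computed against 3 reads in each of its libraries. Correlations over group means used log2 CPM with a prior count of 2. The test was checked on simulated data.

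Members and lists were chosen with earlier results of these data known. All members were named, from each list up to 3 called genes with the greatest absolute change, and for Lum and Dcn the 5 most like genes. In addition, Col6a1, Col6a2, Col6a3, Pdgfra and Prrx1 were named after their values were seen. Replicate numbers paired the samples (deviations of same-numbered libraries correlated above 0.1 in all 3 pairs) in MyoD alone, day 10 against day 2, at 0.20 to 0.42, and between the arms on days 2, 4 and 6. Alternatives were DESeq2 1.42.0, its size factors in edgeR, no filter and a stricter one, no minimum fold change, only the groups compared, log2 of TPM plus 0.1, a replicate block, and leaving out each library.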

Additional observations from a re-analysis of the deposited data

Results flagged for a closer look

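The effect of sorting for Pax7-GFP differed between iMPCs and myoblasts for Ogn and Podn, by an interaction term in edgeR's quasi-likelihood fit over all genes. For Ogn the log2 difference between sorted and bulk cells was -2.83 in iMPCs and 0.92 in myoblasts, and the difference between these effects was -3.75 (SE 0.82, adjusted p = 0.00079). For Podn the effects were -4.24 and 0.13, and their difference was -4.36 (SE 0.53, adjusted p = 1.2e-06). Over all 17325 genes, 5698 (32.9%) had an adjusted p under 0.05 for this term. Passing it was therefore common, and nothing about the family is read from Ogn and Podn passing. The interaction did not pass for Dcn (adjusted p = 0.15), Bgn (0.12), Aspn (0.074) or Prelp (0.37), and could not be estimated for Lum, Fmod and Kera, which had no reads in myoblasts. Both sorted groups were quantified with the same fragment-length setting, which differs from that of the bulk groups, and cannot be told apart from sorting.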

How the results depend on the processing

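No called member reversed its direction under any alternative run. Of the log2 fold changes recomputed, 1094 kept their side of the threshold, 34 lost it and 23 gained it. DESeq2 called 2 members in place of 1 for MyoD alone on day 10 against MEFs (Ogn added), and leaving low counts unfiltered gave 0. Fitting the compared groups alone gave 2 in place of 1 for iMPCs against day 10 with F/R/C (Ogn added) and for day 10 against day 2 with F/R/C (Bgn added), 1 in place of 2 for MyoD day 2 against MEFs, and 3 in place of 5 for sorted against bulk iMPCs (Dcn and Aspn lost). Leaving out 1 library gave 0 to 1 members for MyoD day 10 against MEFs, 1 to 3 for MyoD day 2 against MEFs, 2 to 6 for F/R/C day 10 against MEFs, 1 to 2 for F/R/C day 10 against day 2, 1 to 2 for iMPCs against F/R/C day 10, 3 to 7 for the sorted groups, and 0 to 1 for sorted against bulk myoblasts. The upper ends of 3, 6 and 7 include Omd, which passed the filter in those fits. The log2 difference between the arms on log2 of TPM plus 0.1 was 5.86 for Lum on day 4, and 1.66 for Kera over the days. The cause of the changes was not tested. Kera, Omd and Fmod were at or near the floor of 3 reads in several groups.

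In the fit with a replicate block, the count of called members went from 0 to 1 for MyoD alone, day 10 against day 2, where the numbers pair the samples. In the other tested comparisons same-numbered libraries did not all correlate above 0.1. There the block gave 2 in place of 1 for MyoD day 10 against MEFs and for iMPCs against F/R/C day 10, both with Kera added. No other tested count moved by over 1.5 times with the block.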
